A study of Arabidopsis thaliana with 6 samples.

Results

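The AINTEGUMENTA, PLETHORA and PUCHI genes were followed in second internodes of *Arabidopsis* stems in which an activated form of the auxin response factor ARF5 had been released in the cambium. The 9 genes were chosen by their gene identifiers, with earlier results of these data known, out of 33318 genes counted. They are *ANT* (AT4G37750), *AIL1* (AT1G72570), *PLT1* (AT3G20840), *PLT2* (AT1G51190), *PLT3* (AT5G10510, also called *AIL6*), *BBM* (AT5G17430), *PLT5* (AT5G57390), *PLT7* (AT5G65510) and *PUCHI* (AT5G18560). Because they were chosen with this contrast in view, their Dex and mock values are given as a description, the number of them past the threshold for all genes is given only beside the share over all genes, and *PLT3* is also in the lists of responsive genes that the study drew partly from these libraries.

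All plants carried *pPXY:GR-ARF5∆III/IV* in the Columbia background. In this line the *PXY* promoter, active in cambium stem cells, drives an ARF5 protein without the domains that AUX/IAA repressors bind, fused to the glucocorticoid receptor so that it enters the nucleus upon treatment with dexamethasone (Dex). Plants were grown for 3 weeks with 8 h of light and then with 16 h of light at 21 °C until they were 15 to 20 cm tall, and were briefly dipped headfirst into mock solution or 15 µM Dex, watered with the same solution and left for 3 h before harvest. There were 3 mock and 3 Dex libraries. The methods on RNA preparation give biological replicates of 3 pooled plants each, and GEO's description gives RNA pooled from 3 samples. Dex-treated plants without the transgene were not analysed here, so that an effect of Dex itself and an effect of the released ARF5 cannot be told apart.

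AP2-type transcription factors bind DNA through the AP2 domain. ANT and the PLETHORA proteins carry a pair of such domains and keep cells dividing. ANT promotes organ growth and is a known regulator of the vascular cambium, and PLT1, PLT2, PLT3 and BBM act together in the stem cell niche of the root tip. PLT3, PLT5 and PLT7 act in lateral root formation and in the spacing of organs around the shoot tip. PUCHI is a member of the ERF family with a single AP2 domain, known from lateral root primordia and from floral meristems. In flower primordia, *ANT* and *PLT3* are known targets of ARF5, which makes the group of interest in a tissue in which ARF5 was activated.

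The 250 bases before the annotated start of the 4 genes whose Dex and mock values are compared most closely below, besides *ANT*, are shown because ARF proteins bind short DNA elements of which TGTCTC and TGTCGG are the best known. The sequences and gene starts are those of RefSeq (build TAIR10.1), read along the strand of each gene. Capitals mark TGTCTC or TGTCGG on either strand.
*PUCHI*, chr5:6166041-6166290, minus strand: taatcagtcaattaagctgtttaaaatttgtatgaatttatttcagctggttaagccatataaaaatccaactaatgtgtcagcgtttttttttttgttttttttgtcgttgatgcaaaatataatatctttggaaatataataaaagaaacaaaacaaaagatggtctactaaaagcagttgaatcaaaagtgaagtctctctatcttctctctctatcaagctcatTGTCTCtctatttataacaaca
*PLT3*, chr5:3315151-3315400, plus strand: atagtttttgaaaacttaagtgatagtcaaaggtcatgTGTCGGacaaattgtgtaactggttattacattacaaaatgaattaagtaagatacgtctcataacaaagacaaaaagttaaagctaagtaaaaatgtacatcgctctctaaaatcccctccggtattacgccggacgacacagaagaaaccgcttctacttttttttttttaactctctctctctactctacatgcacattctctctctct
*PLT5*, chr5:23256704-23256953, minus strand: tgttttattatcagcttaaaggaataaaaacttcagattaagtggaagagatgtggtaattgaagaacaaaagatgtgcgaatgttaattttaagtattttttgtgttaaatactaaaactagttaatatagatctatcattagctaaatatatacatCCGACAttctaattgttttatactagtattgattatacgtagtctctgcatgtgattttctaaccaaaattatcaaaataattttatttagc
*PLT7*, chr5:26185343-26185592, plus strand: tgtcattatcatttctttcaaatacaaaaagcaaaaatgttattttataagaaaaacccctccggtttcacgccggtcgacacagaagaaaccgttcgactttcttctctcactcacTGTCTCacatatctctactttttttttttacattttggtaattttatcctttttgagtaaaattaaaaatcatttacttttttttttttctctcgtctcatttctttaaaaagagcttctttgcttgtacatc

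Each of these 4 stretches held 1 of the 2 elements. *PUCHI* had TGTCTC at position -22 from the start, *PLT7* had TGTCTC at -133, *PLT3* had TGTCGG at -212 and *PLT5* had TGTCGG at -92. In the window from 250 bases before to 50 bases after the start, TGTCTC was found for 4 of the 9 genes and TGTCGG for 3, on either strand and with no gene holding both. Thus 7 of 9 genes held 1 of the 2 elements, beside 18.7% of 27443 windows of the same length at all annotated gene starts (14.2% for TGTCTC and 5.12% for TGTCGG). *ANT*, whose sequence is not shown, and *PLT2* held neither. *AIL1* and *BBM* (TGTCTC) and *PLT1* (TGTCGG), genes with few or no reads, also held 1. With 1000 bases before the start, chosen after the data were seen, 8 of 9 genes held either element beside 50.7% of all windows, *ANT* among them. The looser element TGTCNN, which includes both, was in 8 of 9 windows beside 81.3% of all. These matches describe the letters only, and 21.5% of the exon lengths in the deposited tables were equal to a RefSeq transcript, so the gene starts used for counting may differ.

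*PLT3* and *PLT7* also shared a stretch of upstream sequence, shown here because no other pair among the 9 genes had a best match of this length. Of its 43 bases, 39 were identical, and capitals mark the 4 that differ.
*PLT3*, chr5:3315299-3315341: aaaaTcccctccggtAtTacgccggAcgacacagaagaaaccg
*PLT7*, chr5:26185394-26185436: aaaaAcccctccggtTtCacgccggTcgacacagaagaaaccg

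The stretch began 102 bases before the start of *PLT3* and 199 bases before that of *PLT7*. The best match without gaps in each of the other 35 pairs ran over 7 to 22 bases, with at most 19 identical.

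The proteins of *PLT3* and *PLT7* were also among the most alike of the group. In the best local alignment, PLT1 and PLT2 had 85.2% identical residues and PLT3 and PLT7 had 77.9%, beside a median of 59.3% over the 28 pairs of proteins with a pair of AP2 domains (45.4% to 85.2%). The 8 pairs with PUCHI had 30.1% to 42.6%. The proteins are 348 (PUCHI) to 604 (PLT3) residues long in RefSeq. All reads counted for the 8 genes with reads were marked as unique, so that reads shared between these related genes do not enter the values. The mark does not settle the reads of *PLT3* where it overlaps another gene, as given below.

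**Figure D1:**
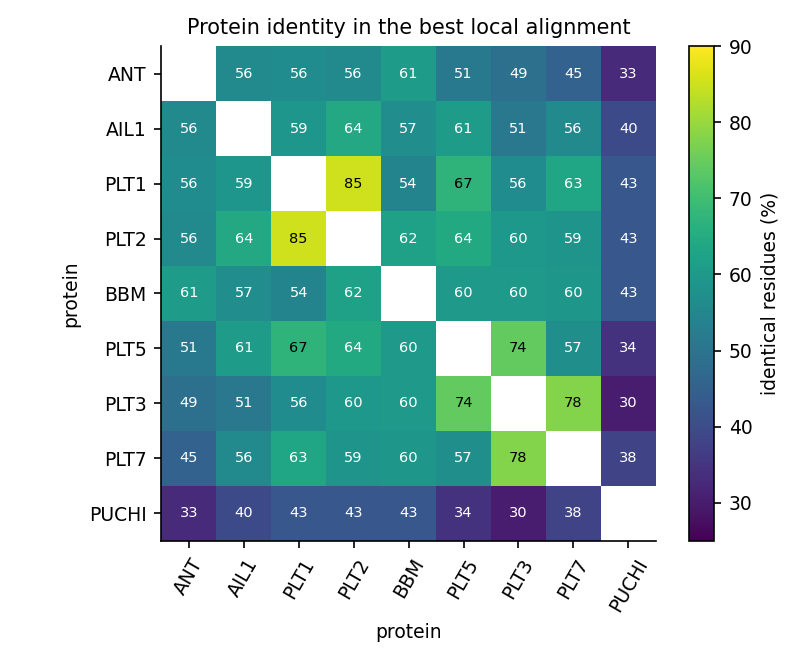
Percent of identical residues in the best local alignment of each pair of the 9 proteins (RefSeq), with proteins on both axes and the value in each cell. PLT1 and PLT2 (85.2%) and PLT3 and PLT7 (77.9%) are the most alike, and the 8 pairs with PUCHI lie at 30.1% to 42.6%.

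The libraries held 22871927 to 32099136 reads in genes. On the first principal component of log2 values (49.4% of the variance), mock replicates 1 and 3 lay at -50.4 and -50.6 and the Dex libraries at 30.1 to 44.2. Mock replicate 2 lay at -9.75, and at -54.1 on the second (20.6%), away from the other mock libraries, so values without it are given where it bears on a gene. The 6 markers of stem vasculature were all present. Their summed level was 1877 to 1987 CPM (counts scaled to library size after TMM normalization) in mock and 1719 to 2032 CPM in Dex libraries. Most of it was *CESA7* (means of 1236 in mock and 1120 CPM in Dex libraries), so the sum does not show single markers. Among these, *ATHB8* averaged 124 in mock and 265 CPM in Dex libraries, and *WOX4* 39.1 and 30.4 CPM. *ARF5* reads include those of the transgene and averaged 257 ± 23.2 CPM without Dex and 218 ± 12.7 CPM with Dex (SD, n = 3 each), which is no check of the treatment since Dex acts on the protein.

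*ANT* was by far the most abundant of the 9 genes in the internode. Levels between genes are compared per length, as the deposited RPKM (exon reads scaled by exon length and by the reads of the library). In mock libraries *ANT* was at 18.9 ± 1.92 RPKM, 9.63 times the level of *PLT3* at 1.96 ± 0.118 RPKM (SD, n = 3 each). *PLT5* followed at 1.42 ± 0.366 RPKM and *PLT7* at 1.24 ± 1.25 RPKM, and these last values did not differ beyond their spread. The other 5 genes had no reads in any mock library. In Dex libraries the order was *ANT* (22.4 ± 2.17 RPKM), *PLT3* (2.95 ± 0.616), *PLT5* (2.03 ± 0.478), *PLT7* (1.01 ± 0.344) and *PUCHI* (0.959 ± 0.501), of which *PLT7* and *PUCHI* did not differ beyond their spread. *ANT* took 75.6% to 83.2% of all reads of the group in each library.

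**Figure D2:**
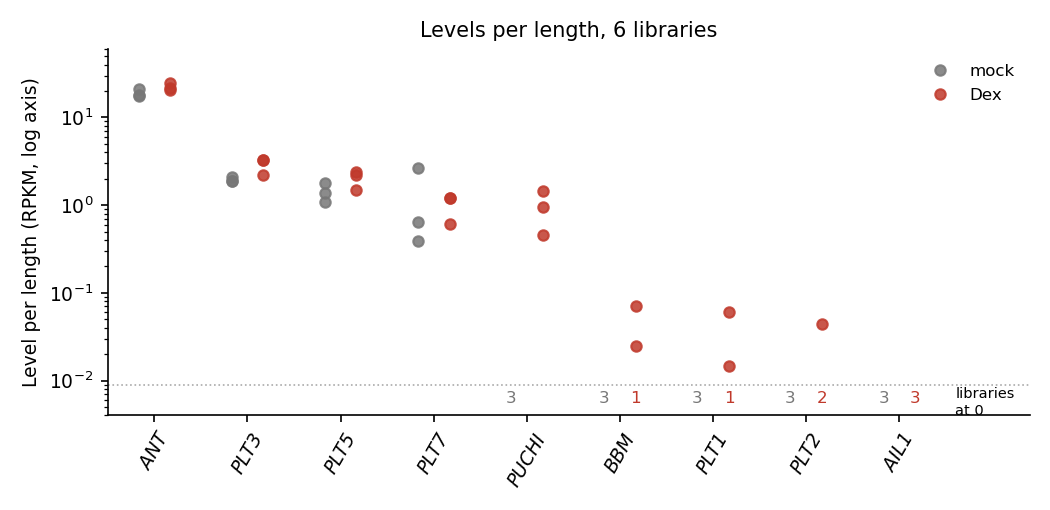
Level per length (RPKM, log axis) of the 9 genes in the 3 mock (grey) and 3 Dex (red) libraries, each point a library, with the number of libraries at 0 printed under the dotted line. *ANT* lies at 17.5 to 24.9 RPKM, well above *PLT3*, *PLT5* and *PLT7*, and *PUCHI* has points in the Dex libraries only.

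The group as a whole gave 1 gene, *PUCHI*, past the threshold for a higher level in Dex libraries (edgeR's quasi-likelihood test, adjusted p under 0.05) and none for a lower level. Over all 19347 genes tested, 4.63% passed as higher and 2.07% as lower, and nothing is read from the count since the genes were chosen with this contrast known. Of the 9 genes, 5 passed the filter on low counts, 4 were not tested, and *PUCHI* passed the filter only through its Dex libraries. At an unadjusted p under 0.05, 2 of the genes were higher and 0 lower, and DESeq2 and limma-voom each called 1 higher and 0 lower. The single call was lost without Dex replicate 2 and without Dex replicate 3, leaving 0 of 9 genes. In CPM, every Dex library lay above every mock library for 3 of the 9 genes (3 of the 5 tested). Over all genes tested the share was 15.2%. Among the 3 is *PUCHI*, which passed the filter only through its Dex libraries, so its separation is no support. *ANT*, also among the 3, overlapped between the groups in RPKM. No gene had every Dex library below in CPM, beside 12.1%.

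*ANT*, the most abundant of the group, had a 1.16-fold higher level in Dex libraries by the fit. It had 39.0, 45.0 and 39.3 CPM in mock replicates 1, 2 and 3 and 51.5, 46.2 and 45.3 CPM in Dex replicates 1, 2 and 3. In CPM the groups did not overlap, but mock replicate 2 lay just under the lowest Dex libraries. In RPKM they overlapped, with 21.1 in mock replicate 2 and 20.8 in Dex replicate 3. The means were 41.1 ± 3.36 and 47.7 ± 3.37 CPM (SD, n = 3 each), a log2 fold change of 0.21 ± 0.10 (SE), and 0.16 (without Dex replicate 1) to 0.29 (without mock replicate 2) with 1 library left out. Reads that cross an exon junction averaged 7.31 ± 0.457 CPM (mock) and 7.83 ± 0.852 CPM (Dex) and overlapped.

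*PLT3*, the closest relative of *PLT7*, was 1.46-fold higher in Dex libraries, a log2 fold change of 0.55 ± 0.20 (SE), and 0.47 to 0.70 with 1 library left out. Its levels were 5.19, 5.49 and 5.30 CPM in the mock libraries and 8.78, 6.08 and 8.55 CPM in the Dex libraries. The mock libraries lay close together and all below the Dex libraries, of which replicate 2 was the lowest. Exon junction reads were 23, 11 and 33 in mock and 35, 26 and 46 in Dex libraries, so that these groups overlapped.

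The last exon of *PLT3* overlaps *RBK1* (AT5G10520), a kinase gene on the opposite strand, over 454 bases of exon in TAIR10.1. Use of the strand in counting is not given in the sources used here, so reads of the overlap cannot be assigned to either gene. *RBK1* itself had 11.3, 18.8 and 12.1 in mock and 30.0, 22.8 and 23.7 CPM in Dex libraries, a log2 fold change of 0.86 ± 0.21 (SE; edgeR, adjusted p = 0.0435). Its part in the values of *PLT3* was not tested. The other 8 genes overlap no annotated gene.

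*PLT5*, which acts with *PLT3* and *PLT7* in lateral root and shoot organ formation, had 2.39, 3.04 and 1.85 in mock and 4.04, 3.81 and 2.61 CPM in Dex libraries. The groups overlapped, since Dex replicate 3 lay below mock replicate 2. The log2 fold change was 0.52 ± 0.30 (SE) or 1.43-fold. Reads across exon junctions, a subset of the same reads, were 4, 15 and 6 in mock and 23, 22 and 22 in Dex libraries. On this smaller set the groups did not overlap, at 0.341 ± 0.214 and 0.818 ± 0.133 CPM (SD, n = 3 each). The share of all genes that separate in junction reads was not obtained, so nothing is read from this. Junction reads of *ANT*, *PLT3* and *PLT7* overlapped between the groups. With 1 library left out, the log2 fold change over all reads of *PLT5* was 0.36 (without mock replicate 3) to 0.71 (without mock replicate 2).

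The direction of *PLT7* depended on 1 mock library. Its levels were 1.04, 0.584 and 4.61 in mock and 1.91, 0.916 and 1.82 CPM in Dex libraries. Mock replicate 3 was the highest of all 6 libraries with 107 reads, beside 23 and 15 reads in the other mock libraries. With all libraries the log2 fold change was -0.42 ± 0.70 (SE), and without mock replicate 3 it was 0.94. Exon junction reads of *PLT7* numbered 15 in mock replicate 3, 1 and 0 in the other mock libraries and 8, 14 and 15 in the Dex libraries. In these reads mock replicate 3 (0.646 CPM) stood above the other mock libraries but near the Dex libraries (0.333, 0.513 and 0.472 CPM). The junction means were 0.230 ± 0.361 CPM (mock) and 0.439 ± 0.0943 CPM (Dex), opposite in direction to the fit over all reads (SD, n = 3 each).

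**Figure D3:**
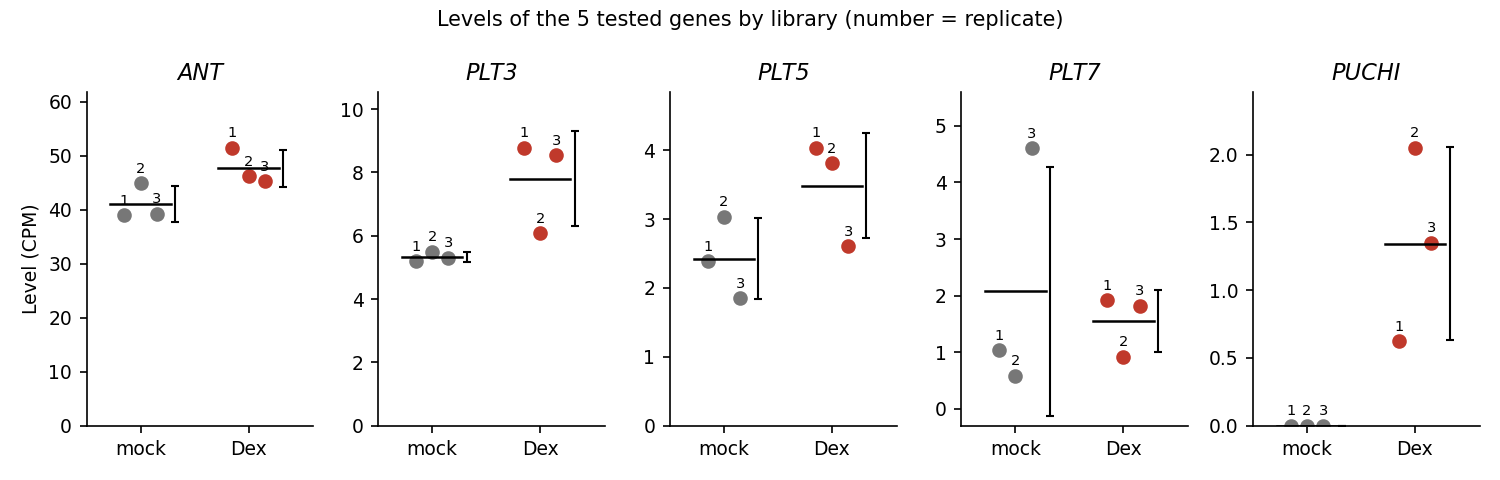
Level (CPM) of the 5 tested genes in each library, with mock in grey and Dex in red, the replicate number at each point, a line at the mean and a bar for the SD (n = 3 each). *ANT*, *PLT3* and *PUCHI* have all Dex points above all mock points, *PLT5* overlaps, and mock replicate 3 of *PLT7* stands at 4.61 CPM.

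*PUCHI* was found only in Dex libraries. It had 0 reads in each of the 3 mock libraries, so that its level there could be 0.0422 CPM at most (a floor of 3 counts for the mock group, which covers counting error alone), and 15, 56 and 43 reads in Dex replicates 1, 2 and 3. These correspond to 0.624, 2.05 and 1.35 CPM, with a mean of 1.34 ± 0.714 CPM (SD, n = 3). The Dex mean was at least 31.8-fold higher than the level allowed in mock libraries, and at least 20.3-fold to at least 40.3-fold with 1 library left out, the lowest without mock replicate 2. Of 10510 genes without a read in any mock library, 106 (1.01%) had reads in every Dex library, and 12 had at least 15 reads in each, the lowest count of *PUCHI*. In the reverse direction, 28 of 10186 genes without a Dex read had reads in every mock library, and 0 had at least 15 in each. The cutoff of 15 was taken from *PUCHI*, which is therefore among the 12 by construction. The Dex group was also read more deeply, with a floor of 0.0361 CPM beside 0.0422 CPM for the mock group. Nothing is read from these counts about *PUCHI*. *PUCHI* has 1 exon, so no read across a junction can be expected of it.

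Among markers of other tissues, those of seeds also had reads only in Dex libraries. The 4 seed markers had no mock reads and summed to 0.291 to 1.14 CPM in Dex libraries. Of them *OLEO1*, an oleosin of oil bodies, had 7, 28 and 17 reads in Dex replicates 1, 2 and 3 and *CRA1*, a seed storage protein gene, 3 reads in Dex replicate 2, and *CRC* and *AT2S3* were at 0. The root marker *CASP1*, of the endodermal Casparian strip, had 0 mock reads and 6, 5 and 11 Dex reads. Another root marker, *RSL4*, went the other way, with 8 reads in mock replicate 3 and 0 Dex reads. The summed level of the 6 root markers was 47.0 to 59.6 in mock and 48.4 to 60.4 CPM in Dex libraries. Nearly all of it was *PHO1* (means of 41.2 in mock and 40.4 CPM in Dex libraries) and *SCR* (13.4 and 13.2 CPM). *EXPA7*, a root hair gene, was at 0. Of the 7 markers of shoot tip and flowers, *WUS*, *CLV3* and *AG* were at 0 in all 6 libraries. *AP3* had 5 mock and 1 Dex reads, *PI* had 18 and 10, and *AP1* had 0 and 2. The sum, nearly all of it *STM*, was 155 to 199 in mock and 192 to 220 CPM in Dex libraries. The 4 markers of green cortex and epidermis summed to 7325 to 13345 in mock and 5737 to 7887 CPM in Dex libraries, with *PDF1* at 0. The part of these tissues in the values of *PUCHI* and the other genes was not tested, and in whole internodes more cells of a type and more RNA per cell cannot be told apart.

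The genes of the root tip were at the edge of detection. *BBM*, known for inducing embryos in vegetative tissue, had 1, 0 and 4 reads in the Dex libraries, *PLT1* had 3, 0 and 1, and *PLT2* had 0, 0 and 3. None of them had a read in a mock library. *AIL1*, a relative of *ANT*, had 0 reads in all 6 libraries, which allows up to 0.0195 CPM (3 counts over all libraries). No fold is given for these 4 genes, which did not reach the minimum for a test.

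**Figure D4:**
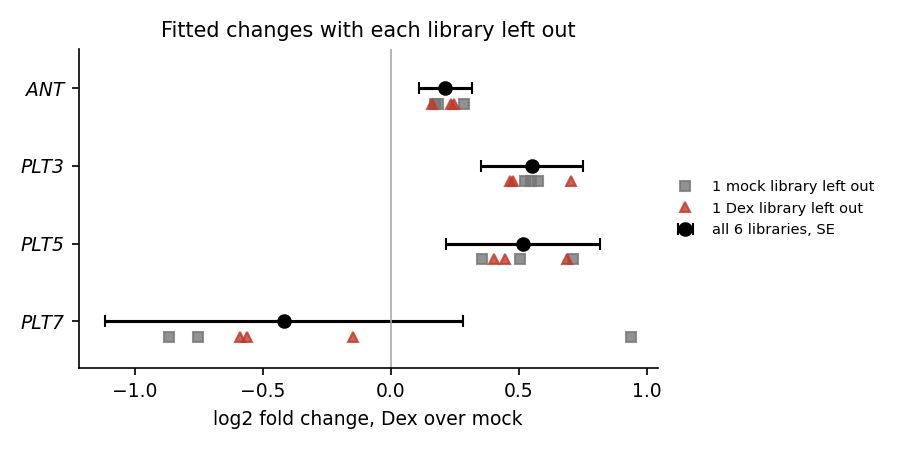
Log2 fold change of Dex over mock libraries for the 4 tested genes with reads in mock libraries. Black points with bars give the fit to all 6 libraries and its SE, and squares and triangles the fits without 1 mock or 1 Dex library. *ANT*, *PLT3* and *PLT5* stay above 0 in each fit, and *PLT7* moves from -0.42 to 0.94 without mock replicate 3.

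The genes whose course over the 6 libraries was nearest to a member, by Euclidean distance of centred log2 CPM, were also recorded for the 4 members with a mean of at least 1 CPM. Nearest to *ANT* were *AT5G62300* and *MAK10* (distances of 0.06 and 0.06). Nearest to *PLT3* were *AT1G45231* and *AT5G15520* (0.14 and 0.15), and nearest to *PLT5* were *AT3G54910* and *AT2G20950* (0.13 and 0.23). The profile of *PLT7*, with its high mock replicate 3, had no close partner, the nearest being *GPT2*, a glucose phosphate transporter gene of plastids, and *PKS4*, a phytochrome signalling gene (0.63 and 0.64).

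Relatives of the 9 genes stayed below the threshold. Over all genes tested, 4.63% were called higher and 2.07% lower, so nothing is read from 0 calls among so few relatives. Of 10 other genes of the AP2 subfamily, 9 were tested and none was called by edgeR, DESeq2 or limma-voom or at an unadjusted p under 0.05, with a median log2 fold change of 0.08 beside -0.01 over all genes tested. *TOE1*, a repressor of flowering, was at 104 ± 20.4 (mock) and 109 ± 5.96 CPM (Dex), and *AT2G41710* at 70.1 ± 16.4 and 56.7 ± 4.72 CPM (SD, n = 3 each). Of 4 relatives of *PUCHI* in the ERF family, *LEP* alone could be tested (0.447 ± 0.100 and 0.408 ± 0.265 CPM), and no call was made by any of these tools or at an unadjusted p. *DRN*, a regulator of embryo and shoot organ patterning, had 0 mock reads and 2, 7 and 0 Dex reads, and *DRNL* and *ERF087* had none.

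Counts called in the lists below stand beside the 4.63% of all tested genes called higher and 2.07% called lower, and the lists were written with earlier results known. Of 6 ARF and Aux/IAA genes tested, 1 rose, namely *IAA12*, the repressor partner of ARF5, from 64.8 ± 7.84 to 129 ± 8.46 CPM (SD, n = 3 each; edgeR, adjusted p = 0.00162), and *ARF2* was at 258 ± 61.6 and 258 ± 14.0 CPM. Without mock replicate 2 the count was 2. No gene of this list was called lower, with 1 at an unadjusted p under 0.05, *IAA14* (3.25 ± 0.903 and 1.98 ± 0.213 CPM). Of 10 other ARF5 targets, 5 were tested and 3 rose (edgeR). *ATHB8*, a regulator of vascular cell fate, rose 2.14-fold, and *TMO5*, which drives divisions in vascular precursors, rose 2.58-fold. *TMO6*, another such target, was lower at an unadjusted p only (41.3 ± 1.02 and 32.7 ± 3.58 CPM; edgeR, adjusted p = 0.107). *ATHB8* and *TMO5* are also in the study's lists, which were drawn partly from these libraries.

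Of 9 genes known to act downstream of ANT and PLT proteins, 5 were tested and 2 rose. Among these was *CYCD3;2*, a D-type cyclin gene that promotes cell division, from 10.2 ± 0.458 to 14.6 ± 1.23 CPM (SD, n = 3 each; edgeR, adjusted p = 0.0482). The call of *CYCD3;2* was lost in 5 of 6 fits that left out a library (adjusted p = 0.0437 to 0.178), holding only without mock replicate 2. Of the other D-type cyclin genes, *CYCD3;3* was at 11.4 ± 2.00 CPM in mock and 6.87 ± 2.01 CPM with Dex, lower at an unadjusted p under 0.05 only (0.60-fold; edgeR, adjusted p = 0.113), and *CYCD3;1* was at 24.9 ± 1.13 and 25.9 ± 4.17 CPM. *CYCD3;3* is in the study's lists too. The median log2 fold change of the 5 genes was 0.05. *CUC1*, *CUC2*, *YUC1* and *YUC4*, of organ boundaries and auxin synthesis, were not tested for want of reads.

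Of 10 cambium regulators, all tested, 2 rose, and the median log2 fold change was 0.06. *RUL1*, a receptor-like kinase that promotes cambium activity, rose 2.35-fold from 31.6 ± 7.53 to 74.1 ± 9.02 CPM (edgeR, adjusted p = 0.00551; SD, n = 3 each), and the other was *ATHB8*. None was called lower, with 1 at an unadjusted p under 0.05, *WOX4*, which promotes cambium divisions, at 39.1 ± 7.41 and 30.4 ± 0.456 CPM (edgeR, adjusted p = 0.161). *RUL1*, *ATHB8* and *WOX4* are in the study's lists as well.

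Of 12 genes of the lateral root programme, in which *PUCHI*, *PLT3*, *PLT5* and *PLT7* are known to act, 8 were tested and 2 were called higher, with a median log2 fold change of 0.33. *GATA23*, of lateral root founder cells, went from 0.316, 0.467 and 0.388 CPM in mock to 12.8, 15.8 and 16.3 CPM in Dex libraries (edgeR, adjusted p = 1.54e-05), and it is in the study's lists. *WOX5*, of the root stem cell niche, had no mock read and 51, 89 and 114 Dex reads, at least 70.8-fold higher than the level allowed in mock libraries. Like *PUCHI*, *WOX5* passed the filter on low counts only through its Dex libraries. So did *GATA23*, with 7, 12 and 9 mock reads beside a minimum count of 10. The calls of *WOX5* and *GATA23* are therefore no support for the list, and neither is the median, which includes both genes. Both were called in each of the 6 fits that left out a library, which adds no support for the same reason. *LBD29* and *LBD33* had no reads, and without mock replicate 2 the count of genes that rose was 4. Of 7 boundary genes of flowers and leaves, 3 were tested and edgeR called none, with 1 higher at an unadjusted p under 0.05, 1 by DESeq2 and 0 by limma-voom. *BOP2*, which shapes leaf and flower boundaries, had 3.70, 3.46 and 3.83 in mock and 6.24, 5.72 and 6.38 CPM in Dex libraries (edgeR, adjusted p = 0.0563), and its relative *BOP1* was at 0.891 ± 0.210 and 1.26 ± 0.418 CPM (SD, n = 3 each).

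**Figure D5:**
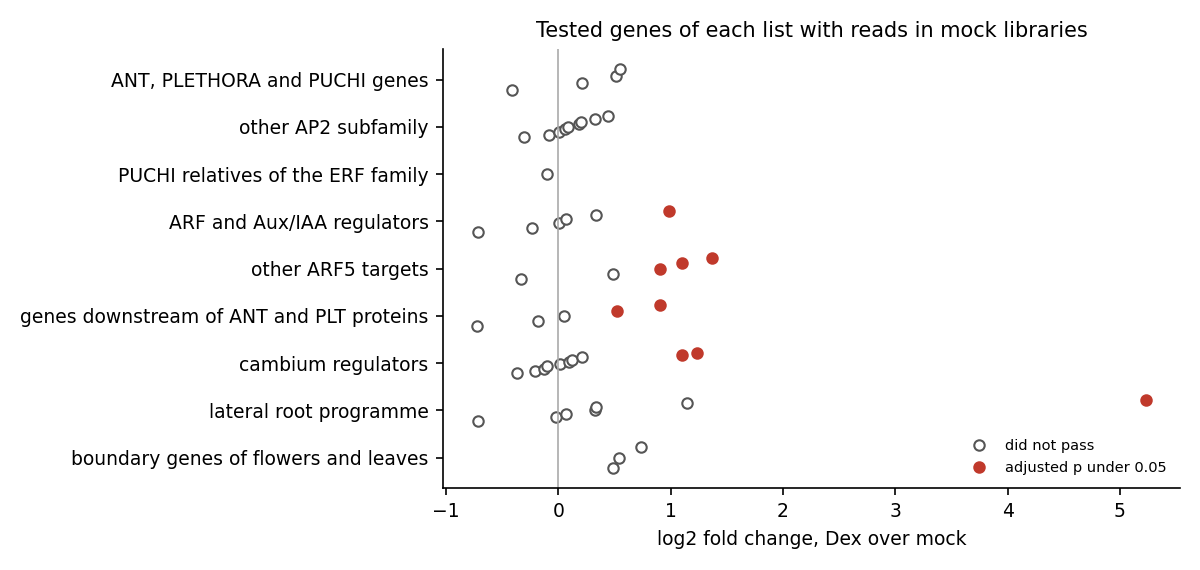
Log2 fold change of Dex over mock libraries for the tested genes of each list that had reads in mock libraries, 1 point a gene, filled where the adjusted p was under 0.05 (edgeR). *PUCHI* and *WOX5* are not drawn because they had no mock reads, and *GATA23* is the filled point of the lateral root programme.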

How the data were processed

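RNA of second internodes was sequenced from 1 end after a strand-marking library preparation. Alignment by the authors was to TAIR10, in CLC Genomics Workbench. The deposited tables give counts over the whole gene, over exons, unique and across junctions, and the authors' RPKM values, which divide exon counts by exon length and by the library total of gene counts. Unnamed entries (5, with 0.0803% to 0.0998% of reads) were dropped.

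Whole-gene counts of 3 mock and 3 Dex libraries were tested with edgeR 4.0.16 (quasi-likelihood, TMM factors, minimum count 10 and total 15, Benjamini-Hochberg adjustment over all genes tested, threshold 0.05) in R 4.3.3, and the test was tried on simulated data. Alternatives were no low-count filter, RLE factors, unnormalized library totals, DESeq2 1.42.0, limma-voom (limma 3.58.1), exon counts, unique counts, a replicate block, an unadjusted p and each library left out. Intervals and floors of 3 counts cover counting error only. The members and gene lists were chosen with earlier results of these data known. Of each list, up to 3 called genes with the smallest adjusted p were named and, with fewer than 2 called, the 2 most abundant; genes with no reads or too few reads, and marker genes, were named in addition. *RBK1*, *DRN*, *IAA14*, *TMO6*, *CYCD3;1*, *CYCD3;3* and *WOX4* were named after their values were seen. The identifier of *LBD3* was corrected after the files were opened. Upstream bases and proteins are from RefSeq (TAIR10.1, whose nuclear chromosomes are those of TAIR10), and proteins were aligned with gap costs of 11 and 1. The values of 1 listed gene are not reported here. Libraries of *p35S:Myc-GR-bdl* plants were not used here.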

Additional observations from a re-analysis of the deposited data

How the results depend on the processing

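Over all genes, 895 were called higher and 400 lower, beside 1379 and 909 with DESeq2 and 2408 and 1969 at an unadjusted p under 0.05. With 1 library left out, 337 to 1918 genes were called higher and 70 to 1559 lower, the highest counts without mock replicate 2, and the cause was not tested. Of the 9 genes, 0 to 1 were called higher with 1 library left out (0 without Dex replicate 2 or Dex replicate 3), 2 at an unadjusted p, and 1 in the other fits, and 0 were called lower in each fit. With a replicate block, 261 genes were called lower and 1 of the 9 genes higher. Deviations of libraries with the same number correlated at -0.10, 0.0002 and 0.21, so the numbers were not taken to pair the libraries. The log2 fold change of *PLT7* was -0.42, 0.94 without mock replicate 3, -0.01 with the block and 0.09 with limma-voom. Log2 fold changes (*PLT7* included), the Dex level of *PUCHI* and counts of the lists were also compared under the alternatives. Of these values, 278 stayed within the spread or within 1.5 times and 21 did not. The 278 include list counts that stayed at 0, and *PLT7* with limma-voom, whose sign changed within a wide spread. Among the 21 were *PLT7* without mock replicate 3 and the number of genes downstream of ANT and PLT proteins that rose. That number was 1 in place of 2 with RLE factors, with no filter, with limma-voom and with the block. RPKM from whole-gene counts was not run, since the tables give no whole-gene length. Depth limits *BBM*, *PLT1*, *PLT2* and *AIL1*, with 0 to 5 reads in all.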
